A study of Homo sapiens with 2 samples.

Results

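The genes described here encode mucins, trefoil factors and other secreted proteins of the gastric and intestinal epithelium: MUC1, MUC5AC, MUC6, MUC13, TFF1, TFF2, TFF3, REG4, AGR2 and LYZ. They were chosen by name, with earlier results of these data known. Every probe set that the platform annotation gives to 1 of these symbols was read. This gave 21 probe sets for the 10 genes, out of 19775 genes named on the array. RNA came from AGS, an established human line of gastric adenocarcinoma cells, and was hybridised to 1 one-colour Affymetrix array per group. The first group is labelled control, and no source used here says what these cells received. In the second group galectin-3, encoded by LGALS3, had been silenced with a synthetic small interfering RNA, and the comparison addressed which transcripts change with its loss. Neither the dose, nor the time after transfection, nor the number of cultures behind each array is stated in those sources.

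Gastric mucus is built from large secreted glycoproteins, chiefly MUC5AC from surface mucous cells and MUC6 from the glands. Trefoil factors are small peptides stored and released with these mucins, and they aid repair of the surface. MUC1 and MUC13 are mucins that stay anchored in the cell membrane, and galectin-3 is known to bind glycans carried by MUC1. AGR2 is a disulfide isomerase of the endoplasmic reticulum needed for mucin folding, REG4 is a secreted lectin-like protein found in intestinal-type epithelium and in gastric tumours, and LYZ is lysozyme, which cleaves the bacterial cell wall.

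The values are MAS5 signals on a linear scale, brought by the authors to a common mean. A background floor was set on each array from probe sets of olfactory receptor genes, at 138.4 for the control array and at 109.5 for the silenced one. A gene counted as measured where the probe set that stood for it was above the floor on at least 1 array, which held for 10514 genes. Differences are given as log2 ratios, silenced minus control. With 1 array per group no difference has a replicate check, no test could be made, and the precision of each value is limited by there being 2 arrays. As a guide to spread within the arrays, the log2 ratios of different probe sets for the same gene had an SD of 0.32 over 4728 genes, which covers neither culture nor RNA preparation. LGALS3 gave a signal of 20206.3 in the control and 2699.8 after silencing, a log2 ratio of -2.90. Of 11 gastric epithelial markers on the array, 9 were measured, among them EPCAM, with signals of 18866.5 and 19383.0, and KRT18, a keratin of simple epithelia, with 32741.3 and 35514.7. Other markers of that list differed more. CLDN4, a claudin of tight junctions, was 2.12-fold higher, and ANXA10, an annexin of gastric epithelium, at least 2.29-fold lower. KRT19 had a log2 ratio of 0.68 and CDH1 of 0.84, and CLDN18 and VSIG1 were under the floors.

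Only part of the mucus gene set was measured in these cells. MUC1, MUC13, REG4, AGR2 and LYZ were above the floor on both arrays. MUC5AC, MUC6, TFF1, TFF2 and TFF3 were under it on both. REG4 was 2.47-fold lower on the silenced array, MUC13 was 2.09-fold higher, and MUC1, AGR2 and LYZ stayed within 2-fold. Thus 1 of 5 measured members was at least 2-fold higher, beside 3.31% of all measured genes, and 1 of 5 was at least 2-fold lower, beside 3.07% of all measured genes. The median log2 ratio of the 5 was -0.34, beside -0.02 over all measured genes. It came to 0.10 when the next brightest probe set stood for each gene. With 5 genes, neither the counts nor the median describe a shared shift, since the largest ratios went opposite ways. The members were chosen with earlier results of these data known, so the shares beside all measured genes are a description only.

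**Figure D1:**
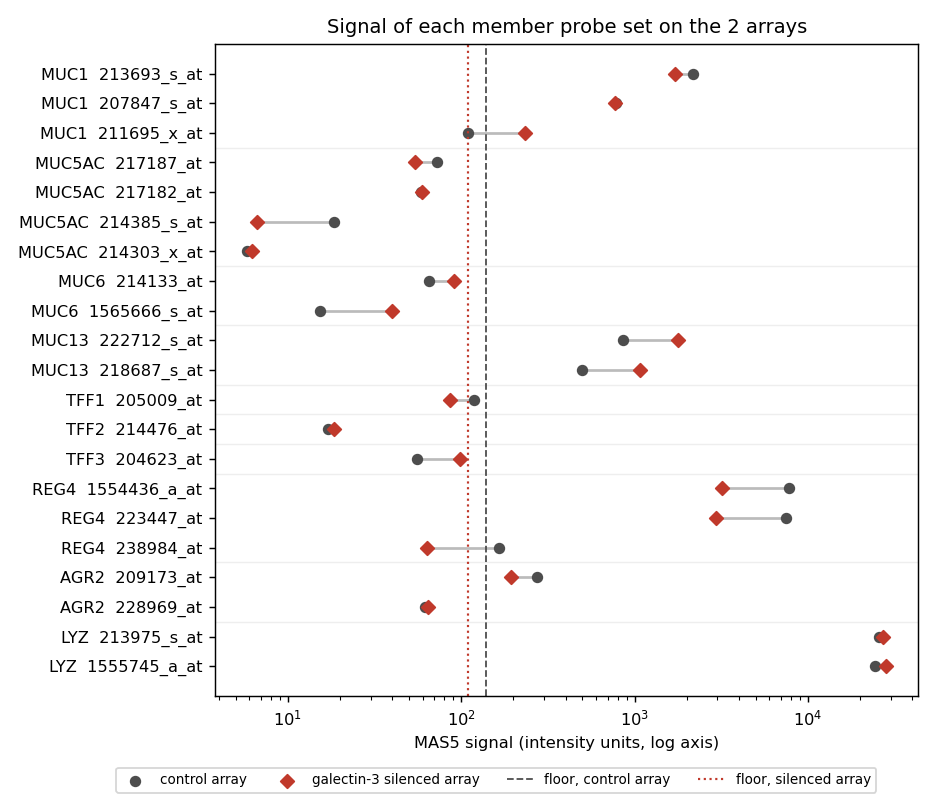
MAS5 signal (log axis) of each of the 21 member probe sets on the control array (circles) and the galectin-3 silenced array (diamonds), with each array's background floor as a vertical line. The 3 REG4 probe sets shift to lower signals and the 2 MUC13 probe sets to higher ones, while all probe sets of MUC5AC, MUC6 and the trefoil factors lie to the left of the floor of their own array.

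REG4 and MUC13 are the members past 2-fold, so the stretch of genome just before the start of each is shown here. The set of RefSeq (GRCh38.p14) sequences used here held such a stretch for 4 members, which were MUC1, MUC13, REG4 and AGR2. The sequences below hold the 250 bases before the annotated start, 5′ to 3′ on the gene's own strand. The REG4 stretch is chr1:119811461-119811710 on the minus strand and the MUC13 stretch is chr3:124934752-124935001 on the minus strand. Capitals mark matches, on either strand, to 5 motifs of promoters and gastrointestinal transcription factors.
REG4: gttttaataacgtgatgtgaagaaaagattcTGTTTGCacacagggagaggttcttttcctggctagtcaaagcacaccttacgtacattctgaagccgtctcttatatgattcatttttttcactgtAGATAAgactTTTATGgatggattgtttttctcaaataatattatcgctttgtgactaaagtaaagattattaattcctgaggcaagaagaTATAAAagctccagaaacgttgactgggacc
MUC13: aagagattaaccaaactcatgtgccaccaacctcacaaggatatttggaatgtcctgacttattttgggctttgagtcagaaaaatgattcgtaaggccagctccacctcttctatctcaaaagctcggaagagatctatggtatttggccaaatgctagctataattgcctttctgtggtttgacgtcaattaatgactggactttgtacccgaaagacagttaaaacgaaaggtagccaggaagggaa
The letters TATAAA stood for the TATA box, which positions the start of transcription. For transcription factors the letters were TTTATG for the CDX family, AGATAA for the GATA family, TGTTTNC for the FOXA family and ACAATG for the SOX family, where N is any base. The REG4 stretch held 1 match each to the FOXA, GATA, CDX and TATA motifs, in that order towards the start, and they did not overlap. The TATA match began 31 bases before the start. The MUC13 stretch held none of the 5. Among 35116 RefSeq stretches of the same length, 10.7% held the TATA motif, 9.64% the CDX motif, 9.17% the GATA motif, 15.5% the FOXA motif and 9.29% the SOX motif. The AGR2 stretch held a CDX and a GATA match, and both RefSeq entries of MUC1 held a TATA match. A match describes the letters only, and the arrays measured no binding.

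REG4 was the member with the largest difference. Its brightest probe set, 1554436_a_at, gave a signal of 7832.6 in the control and 3174.6 after silencing, and its second, 223447_at, gave 7526.5 and 2952.9. The silenced signals were 40.5% and 39.2% of the control, with log2 ratios of -1.30 and -1.35. The dimmest probe set, 238984_at, was above the floor in the control with 164.7 and under it after silencing with 63.2, so its log2 ratio is a bound of -0.59 or lower. All 3 probe sets were thus lower on the silenced array. The brightest stood 56.6 times above the floor in the control and 29.0 times above it after silencing, so the difference was read well clear of background. Only 115 of the 10514 measured genes had a lower ratio. Among the 2003 measured genes whose mean signal lay within 2-fold of that of REG4, 3.15% were at least 2-fold lower. Over all scalings, floors and choices of probe set tried, the REG4 log2 ratio ran from -1.54 to -1.12, past 2-fold in each.

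MUC13, a membrane mucin with EGF-like domains, went the other way. Its probe set 222712_s_at gave 855.0 in the control and 1783.7 after silencing, and 218687_s_at gave 500.0 and 1070.7. The silenced signals were 208.6% and 214.1% of the control, with log2 ratios of 1.06 and 1.10. Both probe sets were above the floor on both arrays and agreed to within 0.1 on the log2 scale. Of the measured genes, 294 had a higher ratio. Among the 3967 with a mean signal within 2-fold of that of MUC13, 3.35% were at least 2-fold higher. The value lay close to the 2-fold line. It was 0.83 when the poly-A spike-in controls were set equal, a scaling that moved the median of all genes to -0.25, and 1.24 when the hybridization controls were set equal, which moved that median to 0.17. Relative to the median of all genes it ran from 1.02 to 1.14 over the settings that gave it a value. Both MUC13 probe sets are of the _s_at kind, which can match several transcripts, and without such probe sets MUC13 had no value.

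MUC1, the other membrane mucin measured, gave no settled difference. Its brightest probe set, 213693_s_at, gave signals of 2177.1 and 1718.0, a log2 ratio of -0.34. The second, 207847_s_at, gave 777.4 and 772.8, a log2 ratio of -0.01. The dimmest, 211695_x_at, was under the floor in the control with 109.4 and above it after silencing with 232.2, which makes it at least 1.68-fold higher. The 3 probe sets of this gene therefore pointed lower, level and higher, and the _x_at kind to which the dimmest belongs can cross-hybridise with other sequences. Which of them follows the MUC1 transcript was not tested.

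AGR2 was measured close to background. Its probe set 209173_at gave 274.4 in the control and 194.5 after silencing, a log2 ratio of -0.50, at 1.98 and 1.78 times the floors. The other AGR2 probe set did not reach either floor, with 61.7 and 64.7. The ratio was thus read from 1 dim probe set and stayed short of 2-fold, from -0.73 to -0.32 over the settings that gave it a value. AGR3, the neighbouring gene of the same family, was under the floor with 38.4 and 8.5.

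LYZ had a high signal on both arrays. The probe set 213975_s_at gave 25668.3 in the control and 27269.8 after silencing, and 1555745_a_at gave 24472.9 and 28413.8, with log2 ratios of 0.09 and 0.22. These signals were 176.8 to 185.5 times the floor in the control. The difference was smaller than the SD between probe sets of a gene and had no settled direction, since it was -0.15 with the poly-A controls set equal. Relative to the median of all genes in each setting it ran from 0.09 to 0.26. Lysozyme is also a product of macrophages. All 11 leukocyte markers on the array, PTPRC, CD14, CSF1R and TYROBP among them, were under the floor on both arrays, with summed signals of 277.3 and 330.6.

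**Figure D2:**
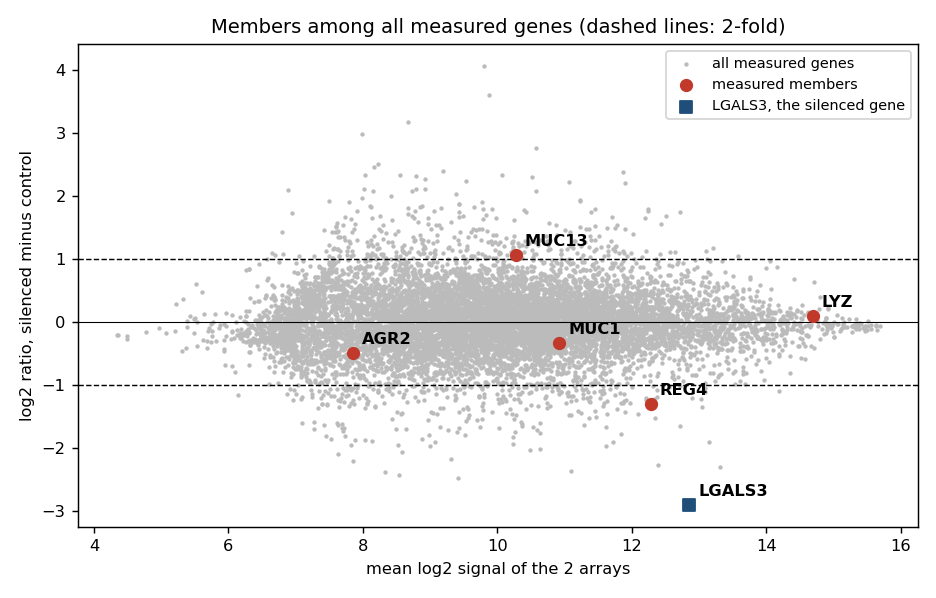
Log2 ratio (silenced minus control) against mean log2 signal for all 10514 measured genes (grey), the 5 measured members (red circles) and LGALS3 (blue square), with dashed lines at 2-fold. REG4 at -1.30 and MUC13 at 1.06 lie outside the dashed lines, and LYZ lies far to the right, near a ratio of 0.

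The secreted gel-forming mucins were not detected. The 4 MUC5AC probe sets ranged from 5.8 to 72.1 in the control and from 6.2 to 59.0 after silencing. The brighter MUC6 probe set gave 64.8 and 90.9, and the dimmer 15.4 and 39.6. All 6 were under both floors, so no fold can be given, and low expression could not be told from none. In RefSeq's gene order MUC2 and MUC5B lie on either side of MUC5AC. These too were under the floors, MUC2 with 73.4 and 91.0 and MUC5B with 8.2 and 7.3.

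The trefoil factors were likewise under the floors on both arrays. TFF1, the trefoil peptide of surface mucous cells, gave 119.0 and 86.5, at 0.86 and 0.79 of the floors. TFF2, the trefoil peptide of mucous neck cells and deep glands, gave 17.0 and 18.4. TFF3, the trefoil peptide of intestinal goblet cells, gave 55.6 and 98.0, at 0.40 and 0.89 of the floors. The 3 genes follow each other in RefSeq's gene order, and each is covered by 1 probe set. With a lower floor, set without olfactory receptor pseudogenes at 87.8 and 82.9, TFF1 had a log2 ratio of -0.46 and TFF3 and MUC6 were bounds of 0.16 and 0.05, none of them past 2-fold. MUC5AC and TFF2 stayed under that floor.

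**Figure D3:**
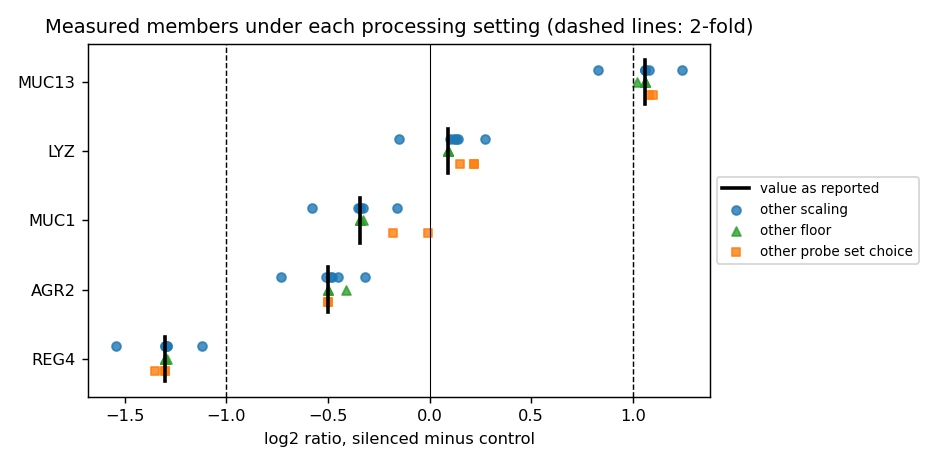
Log2 ratio (silenced minus control) of the 5 measured members as reported (black bars) and under other scalings (circles), floors (triangles) and choices of probe set (squares), with dashed lines at 2-fold. REG4 stays left of the lower line from -1.54 to -1.12, MUC13 crosses the upper line at 0.83 under 1 scaling, and LYZ lies on both sides of 0.

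The genes that flank REG4 and MUC13 did not share their differences. Of the 4 protein-coding genes nearest to MUC13 in RefSeq's order, the integrin ITGB5 had a log2 ratio of 0.01, HEG1 -0.30, the pyrimidine synthesis gene UMPS -0.67 and SLC12A8 -0.72, beside 1.06 for MUC13. Near REG4, the receptor NOTCH2 had a log2 ratio of -0.42, and PHGDH and ADAM30 were under the floors.

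Genes related to the members by function were read from lists, of which the other mucins came first. Of 14 further genes for mucins and mucin-like proteins on the array, 13 were under the floor on both arrays. The exception was MUC20, a membrane mucin, with signals of 192.3 and 409.8, which is 2.13-fold higher. A second MUC20 probe set, at 80.5 and 279.8, was above the floor only after silencing and gave a bound of 1.02 on the log2 scale, and its other 2 were under both floors. The log2 ratio of 1.09 was 0.86 with the poly-A controls set equal, 0.92 with an offset of 50 in place of the floor and a bound of 0.57 with the floor set 2 times higher, all short of 2-fold. MUC13 and MUC20, both membrane mucins, were the genes past 2-fold among the MUC genes read here, and MUC1 was the other one measured.

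Of 31 other secreted proteins of the stomach and intestine on the array, 9 were measured. Of these 1 was 2-fold lower or more, beside 3.07% of all measured genes, and none was 2-fold higher, beside 3.31%. The list's median log2 ratio was -0.18. REG1A, a secreted protein of the same family as REG4, gave 578.9 and 272.9, which is 2.12-fold lower. Its log2 ratio of -1.08 was -0.90 with the hybridization controls set equal and -0.96 with the offset, both short of 2-fold. Of the 9, 5 had a log2 ratio below 0 and 4 above. Short of 2-fold and below 0 were the protease inhibitor SLPI with -0.75, pepsinogen C (PGC) with -0.48, SPINK1 with -0.29 and cathepsin E (CTSE) with -0.18. Above 0 were ZG16B with 0.36 and CST3 with 0.12. PIGR and SPP1 were under the floor in the control, with bounds of 0.48 and 0.02. The gastrokines GKN1 and GKN2 and the lipase LIPF, products of differentiated gastric glands, were under the floors.

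Of 24 enzymes of mucin O-glycosylation on the array, 17 were measured. Of these 2 were past 2-fold in the higher direction, beside 3.31% of all measured genes, and none in the lower, beside 3.07%. The list's median log2 ratio was 0.14. GALNT5, a transferase that starts O-glycan chains, gave 342.3 and 890.4 and was 2.60-fold higher, and another probe set, with 227.8 and 533.1, had a log2 ratio of 1.23. Of its other 3 probe sets, 2 were above the floor only after silencing, with bounds of 0.52 and 0.27, and 1 was under both floors. GCNT1, which branches the core of O-glycans, gave 258.4 and 568.9 and was 2.20-fold higher, with 0.79 on its other probe set. Both enzymes missed 2-fold when the median over their probe sets was taken, with 0.87 for GALNT5 and 0.96 for GCNT1, and GCNT1 was also at 0.91 with the poly-A controls set equal. The remaining 15 stayed within 2-fold on the probe sets that stood for them, 9 of them with a ratio above 0 and 6 below. GALNT7 had 0.92 and, on its other probe set, 1.09, and GALNT6 had 0.29 and 1.05. The count higher was 3 with the next brightest probe set, 3 with the hybridization controls set equal and 3 with no floor. It was 1 with the poly-A controls set equal and 1 with the median over probe sets.

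Of 28 genes of protein folding, transport and granule packaging on the array, 27 were measured. SYTL2, which links secretory granules to the cell membrane, was 2.77-fold higher with signals of 1529.0 and 4233.4, and its other 2 probe sets had log2 ratios of 1.66 and 1.67. All 3 are of the _s_at kind. Thus 1 of the 27 was at least 2-fold higher, beside 3.31% of all measured genes. None of the 27 was 2-fold lower as reported, beside 3.07%, and the median log2 ratio was -0.18. The count lower was 1 with the poly-A controls set equal, 1 with the next brightest probe set and 2 without _s_at and _x_at probe sets. TMED2, a carrier of cargo between the endoplasmic reticulum and the Golgi, had a log2 ratio of -0.81 on its brightest probe set and -1.03 and -0.97 on its others. The chaperone CANX had -0.30 on its brightest and -1.07 on 1 of its others. XBP1, a transcription factor of secretory cells, had a log2 ratio of 0.08.

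Of 23 transcription factors of mucous and gastric lineages on the array, 17 were measured. Past 2-fold were 2 in the higher direction, beside 3.31% of all measured genes, and none in the lower as reported, beside 3.07%. The median log2 ratio was -0.20. ONECUT2 fell under the floor after silencing, with 177.6 and 60.8, so its log2 ratio is a bound of -0.70 or lower. The count lower was 1 with the array median as the floor and 1 with the floor set without olfactory receptor pseudogenes. It was also 1 with no floor and 1 with no floor and an offset of 50. SOX2, a factor of stomach epithelium, gave 2546.4 and 6710.1 and was 2.64-fold higher, with 1.19 and 1.30 on 2 other probe sets and its dimmest under the floors. EHF, an epithelial ETS factor, was under the floor in the control with 33.1 and gave 459.5 after silencing, which makes it at least 3.32-fold higher. Its other 5 probe sets were under the floors. With the floor set 2 times higher this bound was 0.73 on the log2 scale, short of 2-fold. SPDEF, a factor of mucous and goblet cells, had signals of 213.5 and 185.8, but its other probe sets ran from -1.15 to 0.56 in log2 ratio. The intestinal factor CDX2 had a log2 ratio of -0.44, and CDX1 was under the floors. GATA4 had -0.44, GATA5 -0.47 and GATA6, the brightest GATA factor, 0.07. FOXA1 had -0.51, FOXA2 -0.35 and FOXA3 -0.18. All of these ratios were within 2-fold, and whether any of these factors acts on REG4 was not tested.

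Of 13 binding partners and receptors of the members on the array, 9 were measured. LGALS3 itself was the only one past 2-fold on the probe set that stood for it. CD44 had a log2 ratio of -0.25 on that probe set, but its other 6 ran from -1.28 to -0.43. EGFR, which MUC1 can associate with, had a log2 ratio of -0.10, ERBB2 0.10 and CTNNB1 -0.06. LYPD3, described as a receptor for secreted AGR2, had 0.68. Its signals were 139.9 and 224.7, and the control value lay barely above the control floor of 138.4. CXCR4, described as a receptor for TFF2, was under the floors, as was TFF2 itself.

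**Figure D4:**
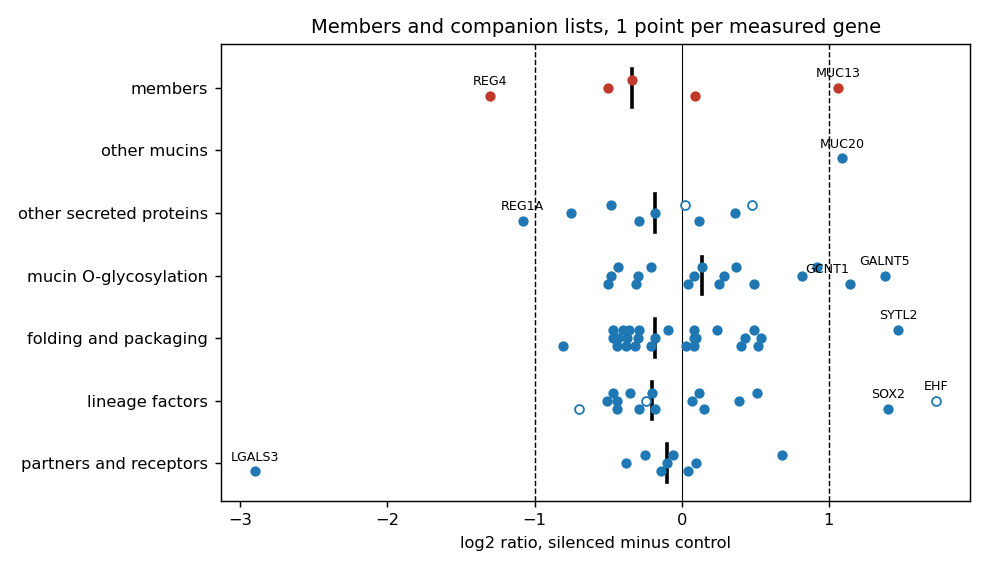
Log2 ratio (silenced minus control) of each measured gene among the members (red) and the 6 related lists (blue), with open circles for ratios that are bounds or have no direction, black bars for medians of lists with at least 3 measured genes and dashed lines at 2-fold. Among the members, REG4 and MUC13 lie outside the dashed lines. The related genes outside them are LGALS3, MUC20, REG1A, GALNT5, GCNT1, SYTL2, SOX2 and EHF.

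Markers of other cell types were read beside these values. Of 11 markers of intestinal goblet and absorptive cells, 3 were above the floor on both arrays, which were VIL1, CDH17 and LGALS4, with summed signals over the list of 11289.1 and 12289.3. LGALS4, a galectin of intestinal epithelium, gave 1133.1 and 421.6 and was 2.69-fold lower. VIL1, which bundles actin in microvilli, gave 2778.7 and 5018.5, a log2 ratio of 0.85 in the other direction, and CDH17, the intestinal cadherin, had -0.11. The goblet cell products MUC2, ZG16, CLCA1 and FCGBP were under the floors. Of 10 fibroblast markers 7 were under the floors on both arrays, with summed signals over the list of 3459.6 and 2723.1. PDGFRA, a growth factor receptor of mesenchymal cells, was 2.49-fold lower on its brightest probe set but 0.70 in log2 ratio on another, and COL1A1 had 0.88 on its brightest and 0.53 and -0.55 on others. Whether a change in the make-up of the culture has a part in the REG4 or MUC13 difference was not tested.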

How the data were processed

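The authors deposited 1 linear intensity per probe set and array, computed with MAS5, per the submitters' processing notes. No source used here states the MAS5 version or scaling target. The 2% trimmed mean was 500.07 on both arrays, so this scaling was kept, although it cannot show a change in the total RNA of a cell. Symbols were taken from the platform annotation, which gives 1 symbol to 41097 of 54675. Probe sets with several symbols named no gene. The floor was the 95th percentile of 135 olfactory receptor probe sets on each array, and signals under it were raised to it, which turns a ratio into a bound. Each gene was represented by its brightest probe set (mean of log2 signals), other than _x_at where possible. Genes were counted past 2-fold, and medians were taken over at least 3 genes. All 10 members are named with every probe set, and from each related list up to 4 genes past 2-fold. Further genes were named with their values known. The members and lists were chosen with earlier results of these data known. The steps were tested on simulated data (Python 3.11.15, statsmodels 0.14.6). The changes set there were well past 2-fold and in bright genes above both floors. Changes close to 2-fold, or in genes near the floors, were not tried. In all 15 alternatives were run, 1 of them, the floor without pseudogenes, chosen after seeing the data. Some genes are not reported here.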

Additional observations from a re-analysis of the deposited data

How the results depend on the processing

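REG4 stayed past 2-fold lower under all 15 alternatives, so the count of members at least 2-fold lower was 1 throughout. The count of members at least 2-fold higher, 1 as reported, was 0 with the poly-A controls set equal and 0 without _s_at and _x_at probe sets, because MUC13 then missed 2-fold or had no value. The number of members measured was 5 as reported. It was 4 with the floor 2 times higher, where AGR2 dropped out, 9 with the array median as the floor, 10 with no floor, 10 with no floor and an offset of 50, 8 with the floor set without olfactory receptor pseudogenes, and, by choice of probe set, 4 with the next brightest and 3 without _s_at and _x_at. With the next brightest probe set the MUC1 log2 ratio was -0.01 and the median of the members 0.10. A value was taken as moved where it shifted by more than the SD of 0.32 between probe sets of a gene, and a count where it changed by over 1.5 times. Of the other values for members and list medians, 185 did not move. Of the counts of related genes past 2-fold, 28 moved and 140 did not. No paired analysis was possible because each group has 1 array. Signals near the floors limit AGR2, the trefoil factors, MUC5AC and MUC6.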

Other observations

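Probe sets disagreed for some genes of the related lists, as they did for MUC1. RAB27A, a small GTPase of granule release, had a log2 ratio of -0.37 on its brightest probe set and -1.54 on another. CD44, a surface receptor, had -0.25 on its brightest and ratios from -1.28 to -0.43 on its other 6. GALNT6 had 0.29 and 1.05. What the probe sets of each gene detect was not tested.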
